A study of Mus musculus with 6 samples.

Results

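The inhibitor of DNA binding (ID) family comprises Id1, Id2, Id3 and Id4, and all 4 genes were found by symbol among the 57180 rows of the read count table. In GENCODE M21 Id1 lies on chromosome 2 (plus strand), Id2 on chromosome 12 (minus strand), Id3 on chromosome 4 (plus strand) and Id4 on chromosome 13 (plus strand). ID proteins have a helix-loop-helix (HLH) domain for pairing but lack the basic region that touches DNA, so they hold E proteins and related basic HLH (bHLH) factors in dimers that cannot bind their E-box sites. Their genes are immediate targets of bone morphogenetic protein (BMP) signalling through SMAD proteins, and they are known for keeping mesenchymal and other progenitor cells proliferating and undifferentiated. Transcripts were measured by RNA sequencing in 6 libraries of murine 10T1/2 cells, a mesenchymal fibroblast line, all of which had been stimulated with TGF-β at 5 ng per mL as a model of cancer-associated fibroblasts. Cells of 3 libraries were given photodynamic therapy (PDT), in which chlorin e6, a dye carried by extracellular vesicles directed at midkine, was excited by light, and cells of the other 3 were given PBS. Because every culture carried TGF-β, the response of the Id genes to TGF-β itself was not measured, and vesicles, dye and light were given together. The PDT libraries held 88669946 to 99527847 counts and the PBS libraries 83195529 to 86558216. Replicates are called biological, but whether they were cultured apart is not stated, and the p-values cover only the spread between these samples, which may be technical.

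Transcripts of all 4 Id genes fell in PDT. The change in level was -19.6% for Id2, -23.8% for Id3, -24.3% for Id1 and -36.6% for Id4, and in each gene every PDT library lay below every PBS library. Levels are counts scaled to library size with TMM factors (CPM), and log2 fold changes are PDT over PBS. Adjusted p-values are those of edgeR (quasi-likelihood), with the Benjamini-Hochberg method applied to the 17635 genes tested. Of these genes 17.5% were called lower in PDT at an adjusted p under 0.05 and 36.1% were called in either direction, while 23.4% had every PDT library below every PBS library and 49% were without overlap in either direction. The Id genes thus belonged to a large group of transcripts that were lower in PDT. In bulk RNA, fewer cells of a kind and less RNA per cell cannot be told apart.

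Id1, the member most closely tied to the BMP response, had 93.9, 85.4 and 87.0 CPM in the PDT libraries, against 115, 118 and 119 CPM in the PBS libraries. The groups did not overlap, and the PDT libraries were more scattered than the PBS libraries. Its mean was 88.8 ± 4.53 CPM in PDT and 117 ± 2.13 CPM in PBS (SD, n = 3 each), a log2 fold change of -0.40 ± 0.04 (SE) with a 95% interval of -0.50 to -0.30 and adjusted p = 0.000112 (edgeR).

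Id3, which often acts alongside Id1 in development, had 92.1, 93.4 and 87.8 CPM in PDT, against 119, 123 and 117 CPM in PBS. Again the lowest PBS library stood well above the highest PDT library. The mean was 91.1 ± 2.93 CPM in PDT and 119.6 ± 2.80 CPM in PBS, and the log2 fold change was -0.39 ± 0.04 (-0.48 to -0.30, adjusted p = 6.6e-05).

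Id2, a member known also to bind the retinoblastoma protein, had 29.8, 28.2 and 27.7 CPM in PDT, against 34.8, 35.5 and 36.3 CPM in PBS. The groups were separate and the scatter within each was small. The mean was 28.6 ± 1.08 CPM in PDT and 35.5 ± 0.75 CPM in PBS, and the log2 fold change was -0.31 ± 0.05 (-0.43 to -0.20, adjusted p = 0.000951).

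Id4, a member known chiefly from neural and germline progenitors, was the lowest of the family, with 2.71, 2.43 and 2.79 CPM in PDT, against 4.15, 4.30 and 4.04 CPM in PBS. These levels rested on 243 to 281 counts per PDT library and 330 to 354 counts per PBS library, so counting error alone came to a coefficient of variation of 6.25% in PDT and 5.38% in PBS, against about 1% for Id1 and Id3. The mean was 2.64 ± 0.19 CPM in PDT and 4.17 ± 0.13 CPM in PBS, and the log2 fold change was -0.66 ± 0.12 (-0.92 to -0.40, adjusted p = 0.00185). The interval for Id4 was therefore more than 2 times as wide as those of the other members.

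**Figure D1:**
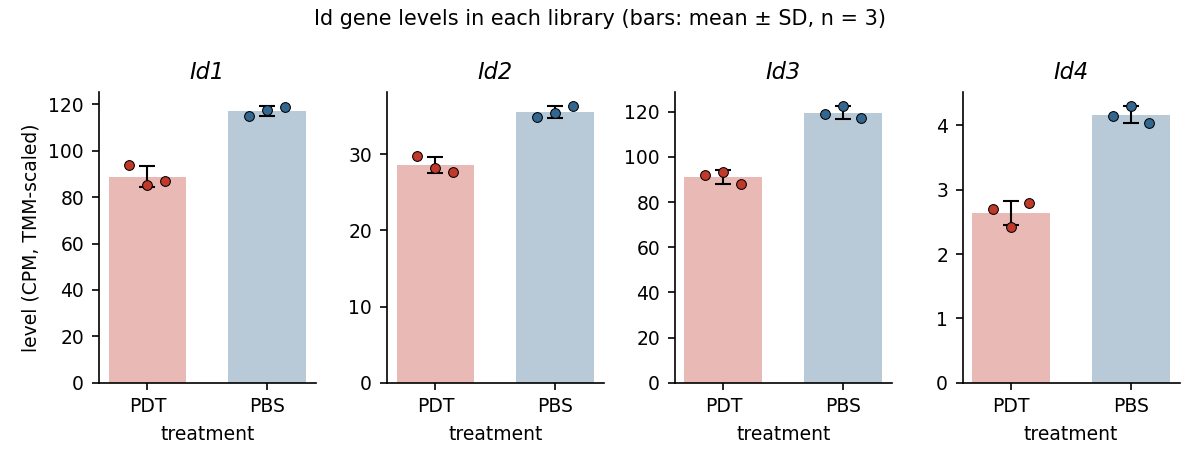
Level of each Id gene (vertical axis, CPM with TMM-scaled library sizes) in PDT libraries at left and PBS libraries at right. Points are libraries, and bars with error bars are the mean and SD of 3. In every panel the PDT points lie below all PBS points, from 85.4 to 93.9 CPM against 115 to 119 CPM for Id1 and from 2.43 to 2.79 CPM against 4.04 to 4.30 CPM for Id4.

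Because all 4 genes were lower in PDT and the family is known as a SMAD target, the sequences around their transcription starts are shown. RefSeq promoter windows on GRCm38.p6, of 250 bases before to 50 after the start, matched 3 of the 4 members, Id2, Id3 and Id4. Each window is printed 5′ to 3′ on the strand of the gene, at chr12:25096043-25096342 on the minus strand for Id2, chr4:136143572-136143871 on the plus strand for Id3 and chr13:48260866-48261165 on the plus strand for Id4. Capitals mark matches on either strand to GGCGCC or GGAGCC, GC-rich letters known from BMP response elements that SMAD1 and SMAD5 bind.
Id2: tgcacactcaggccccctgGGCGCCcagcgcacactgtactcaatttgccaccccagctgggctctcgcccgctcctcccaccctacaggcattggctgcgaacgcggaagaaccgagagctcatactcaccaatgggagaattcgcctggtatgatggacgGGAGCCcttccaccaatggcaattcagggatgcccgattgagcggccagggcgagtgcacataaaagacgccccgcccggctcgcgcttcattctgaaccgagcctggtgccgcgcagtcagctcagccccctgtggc
Id3: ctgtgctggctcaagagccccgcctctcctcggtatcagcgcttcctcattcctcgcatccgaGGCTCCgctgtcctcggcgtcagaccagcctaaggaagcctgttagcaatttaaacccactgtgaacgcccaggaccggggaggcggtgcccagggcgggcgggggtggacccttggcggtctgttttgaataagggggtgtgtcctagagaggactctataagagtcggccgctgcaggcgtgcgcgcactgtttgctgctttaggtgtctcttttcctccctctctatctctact
Id4: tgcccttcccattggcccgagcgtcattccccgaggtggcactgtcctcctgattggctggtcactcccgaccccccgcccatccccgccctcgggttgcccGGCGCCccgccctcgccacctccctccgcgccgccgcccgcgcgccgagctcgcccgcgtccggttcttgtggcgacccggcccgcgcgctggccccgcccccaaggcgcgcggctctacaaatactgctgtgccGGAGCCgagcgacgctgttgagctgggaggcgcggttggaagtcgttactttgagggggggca
The letters GGCGCC stood at -231 in Id2 and at -148 in Id4, counted to the first base of the match from the transcription start, and occurred in 11.9% of 32851 promoter windows of the same length. GGAGCC or its reverse complement stood at -88 in Id2, -187 in Id3 and -13 in Id4, and occurred in 30.8% of windows. The 2 motifs do not overlap in these windows, and 37.1% of all windows held at least one of them. The core of the SMAD-binding element, CAGAC, was present in Id3 alone of the 3, at -167 and -68, and occurred in 49.6% of windows. An ATF/CREB half-site, CGTCA, stood at -170 in Id3 and -229 in Id4 (20.8% of windows), and an E-box, CANNTG, stood at -196 in Id2 (72.3% of windows). These matches describe letters in the windows only.

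The decreases of the Id genes were of ordinary size for transcripts called lower in PDT. The median log2 fold change was -0.39 over all genes called lower and 0.0078 over all tested genes. Id1 and Id3 lay close to the median of genes called lower. The share of tested genes with a lower log2 fold change was 16.6% for Id1, 17% for Id3, 21% for Id2 and 8.52% for Id4.

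**Figure D2:**
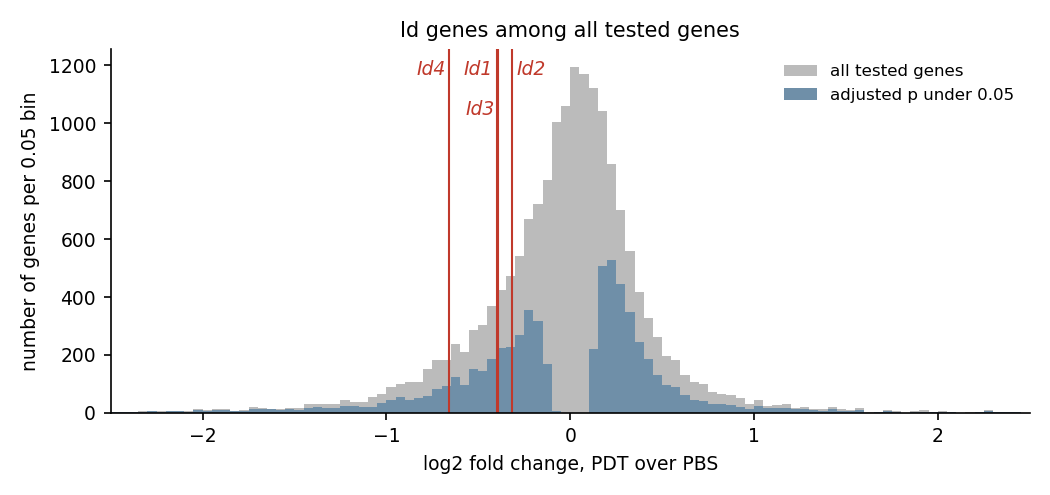
Number of genes (vertical axis) per 0.05 bin of log2 fold change, PDT over PBS (horizontal axis), for all tested genes in grey and for genes with adjusted p under 0.05 in blue. Red lines mark the 4 Id genes, from -0.66 for Id4 to -0.31 for Id2, on the lower side of the distribution but not at its edge. The plotted range leaves out 66 genes.

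Ratios between members within a library, which do not depend on library scaling, were compared for the 6 pairs with exact two-sided permutation tests over samples. With 3 libraries against 3 the smallest p such a test can give is 0.10, and 0.15 was the lowest value after adjustment over the 6 pairs, so no ratio could pass 0.05. The log2 ratio of Id1 to Id3 counts averaged -0.04 ± 0.08 in PDT and -0.03 ± 0.05 in PBS, with overlapping libraries (exact p = 1). Against Id4, the log2 ratio of Id1 was 5.12, 5.14 and 4.96 in PDT and 4.79, 4.77 and 4.88 in PBS, and those of Id2 and Id3 were likewise higher in all 3 PDT libraries, by 0.34 and 0.27 (exact p = 0.10 for each of the 3 ratios). The log2 ratio of Id1 to Id2 differed by -0.09, at 1.63 ± 0.03 in PDT and 1.72 ± 0.01 in PBS (exact p = 0.10). These ratios depended on the length and GC offsets described next. With them the difference turned to -0.043 for Id1 to Id4 and to -0.025 for Id3 to Id4, and it was 0.21 for Id2 to Id4 and -0.25 for Id1 to Id2.

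Transcript length and GC content differ between the members, and offsets for both shifted some of the log2 fold changes. The longest coding transcript in GENCODE M21 was 1160 nt with 54.7% GC for Id1 and 1278 nt with 55.6% GC for Id3, but 1969 nt with 45.1% GC for Id2 and 3849 nt with 42.6% GC for Id4. With per-library offsets for both properties the log2 fold changes of Id1 and Id3 were -0.57 ± 0.04 and -0.55 ± 0.03 (adjusted p = 4.93e-06 and 6.34e-07), that of Id2 was -0.32 ± 0.04 (adjusted p = 0.000403), and that of Id4 was -0.53 ± 0.12 (adjusted p = 0.00589). All 4 remained lower, while the order of the members changed. A real effect of PDT that tracked length or GC would be removed by these offsets too.

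**Figure D3:**
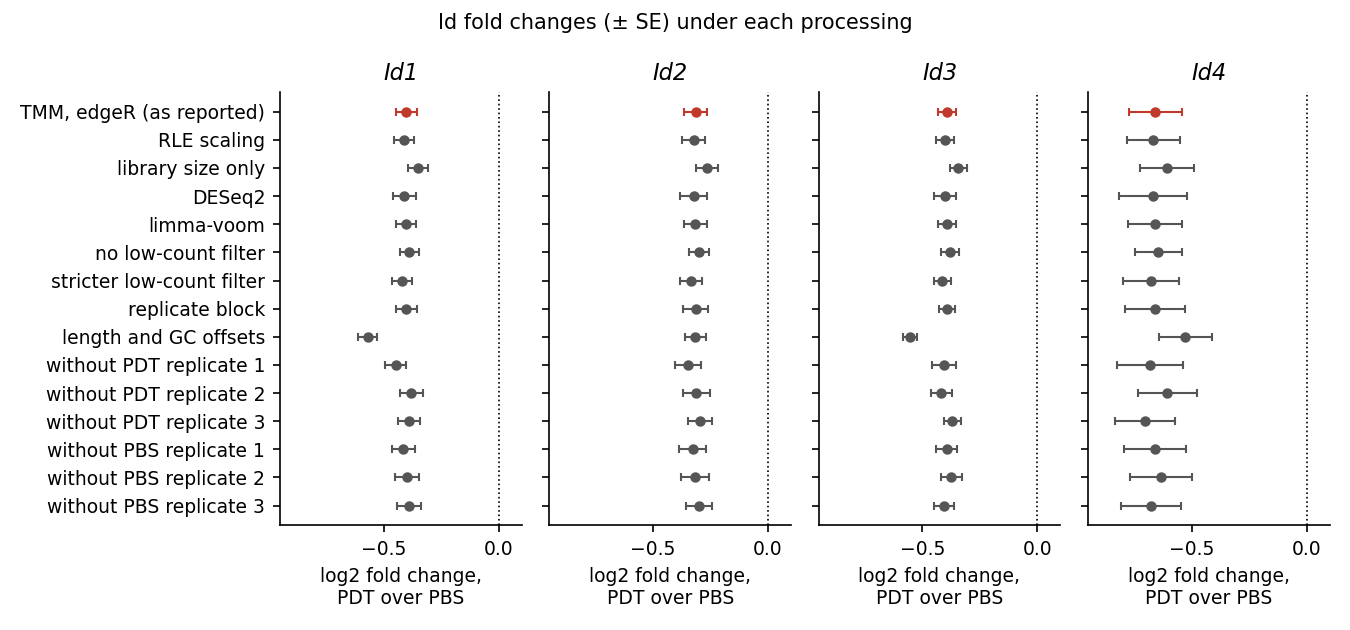
Log2 fold change of each Id gene, PDT over PBS (horizontal axis, points with SE), in edgeR with TMM scaling in red and under 14 other settings in grey (vertical axis). All points lie left of 0, from -0.57 to -0.35 for Id1, -0.35 to -0.27 for Id2, -0.55 to -0.34 for Id3 and -0.70 to -0.53 for Id4 over the 14 settings.

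Divided by transcript length, levels in both groups ranked in the order Id1, Id3, Id2 and Id4. Id1 had 76.5 ± 3.90 CPM per kb in PDT and 101 ± 1.84 in PBS, and Id3 had 71.3 ± 2.30 in PDT and 93.6 ± 2.19 in PBS. Id1 and Id3 ranged from 73.6 to 80.9 and from 68.7 to 73.1 CPM per kb in PDT, so these neighbours differed little beyond their spread, and their order rests on the reference lengths. Id2 followed with 14.5 ± 0.55 CPM per kb in PDT and 18.1 ± 0.38 in PBS, and Id4 with 0.69 ± 0.05 in PDT and 1.08 ± 0.03 in PBS. Id1 took 45.5% to 47.9% of the summed level of the 4 genes in PDT and 46.9% to 48.0% in PBS, and Id3 took 42.7% to 45.2% in PDT and 42.9% to 44.3% in PBS. Id2 took a slightly larger share in PDT, at 8.88% to 8.96% against 8.32% to 8.64% in PBS, and Id4 a smaller one, at 0.39% to 0.458% in PDT against 0.492% to 0.516% in PBS. These shares are without the length and GC offsets, with which Id4 (-0.53) fell no more than Id1 (-0.57) and Id3 (-0.55). The summed level of the 4 genes was 163 ± 5.31 CPM per kb in PDT and 213.7 ± 2.80 in PBS, without overlap (exact permutation p = 0.10, the smallest possible).

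Tcf3, Tcf4 and Tcf12 encode the E proteins, the broadly expressed bHLH factors that ID proteins sequester, and 2 of the 3 were called lower. Tcf3 had 130.2 ± 4.44 CPM in PDT and 120.6 ± 5.59 CPM in PBS, a log2 fold change of 0.11 ± 0.05 that did not pass the test (adjusted p = 0.0853), although it did with scaling by library size only (adjusted p = 0.0185). Tcf4 was called lower, at 124, 111 and 145 CPM in PDT and 159, 155 and 158 CPM in PBS (-0.31 ± 0.08, adjusted p = 0.0116), and Tcf12 was called lower at -0.13 ± 0.04 (adjusted p = 0.0228). The Tcf12 call ended without any one of PDT replicates 1 and 2 and PBS replicates 1, 2 and 3 (adjusted p = 0.0524 to 0.0845), with library size only (0.136) and with no filter on low counts (0.057). With length and GC offsets Tcf4 and Tcf12 stood at 0.0047 ± 0.05 and 0.024 ± 0.03 (adjusted p = 0.954 and 0.616).

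Per length, the summed level of the 4 Id genes was 2.13, 2.05 and 1.95 times that of the 3 E protein genes in the PDT libraries, against 2.55, 2.60 and 2.66 times in the PBS libraries. Every PDT library lay below every PBS library. The mean ratio was 2.04 ± 0.09 in PDT and 2.60 ± 0.05 in PBS, a log2 difference of -0.35, with exact permutation p = 0.10. The E protein sum was 79.9 ± 1.38 CPM per kb in PDT and 82.2 ± 1.54 in PBS and overlapped between groups (exact p = 0.20). The size of the ratio rests on the reference lengths, and the ratio was not computed with the length and GC offsets. Not divided by length, the E protein genes summed to 374 to 407 CPM in PDT and 419 to 425 CPM in PBS, more than the Id genes. These are transcript levels, and protein was not measured.

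**Figure D4:**
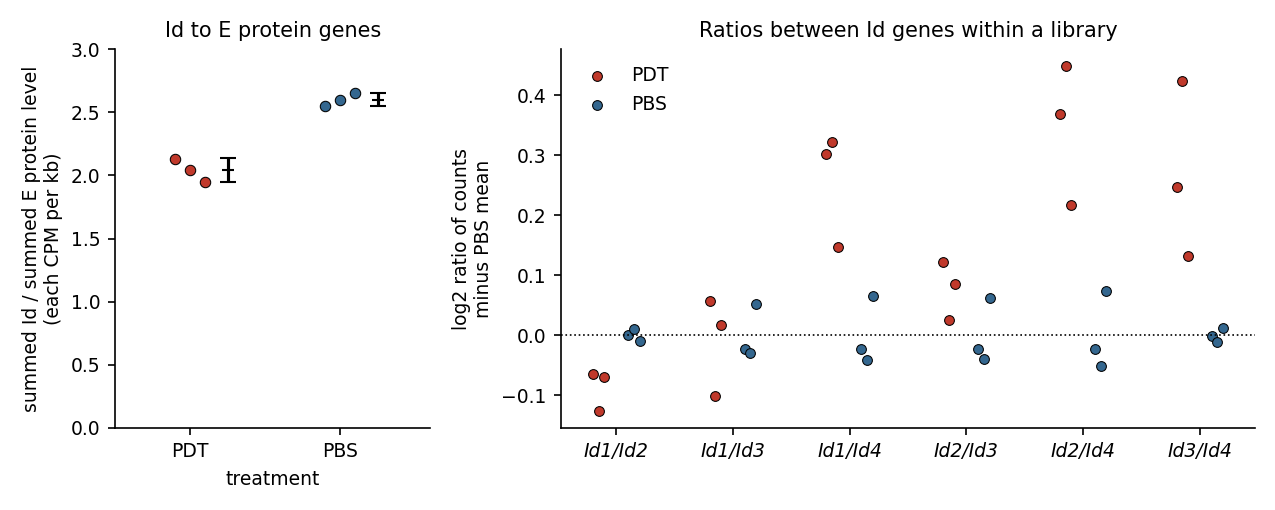
Left, summed level of the Id genes over that of the E protein genes (vertical axis, both in CPM per kb) in each library, with mean and SD in black; PDT libraries lie at 1.95 to 2.13 and PBS libraries at 2.55 to 2.66. Right, log2 ratio of counts for each pair of Id genes minus the PBS mean of that pair (vertical axis), with PDT in red and PBS in blue; the 3 ratios of counts to Id4 are higher in all PDT libraries, but with length and GC offsets the difference turns for Id1 to Id4 (-0.043) and Id3 to Id4 (-0.025). Id1 to Id3 overlaps.

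Among BMP pathway genes, ID partners and Id regulators as 1 group, those lower in PDT outnumbered those higher. Their 13 lists held 107 genes besides the Id family, of which 75 passed the filter on low counts. Of these 35 were lower, 13 were higher and 27 did not pass the test, with a median log2 fold change of -0.13, beside 17.5% lower and 18.7% higher among all tested genes. Without any one library, 27 to 36 were lower and 10 to 14 higher, and with library size only 28 were lower and 18 higher. Counts for single lists also stand beside 17.5% lower, 18.7% higher and 36.1% in either direction among all tested genes. For lists of few genes they describe those genes only.

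Of 13 BMP and GDF ligands 3 were tested and 2 fell. Bmp4, the one with a substantial level, had 67.6, 65.5 and 71.1 CPM in PDT, against 182, 171 and 166 CPM in PBS, with wide separation of the groups. Its log2 fold change was -1.35 ± 0.05 (adjusted p = 8.81e-08). Bmp5 fell as well (-2.98 ± 0.43, adjusted p = 0.000601), at 0.10 ± 0.06 CPM in PDT and 0.82 ± 0.15 CPM in PBS, and Bmp2 and Bmp7 were listed at 0 in all 6 libraries.

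Of 10 tested receptors and co-receptors 4 fell and 2 rose, beside 17.5% lower and 18.7% higher among all tested genes. Acvr1, the type I receptor ALK2, fell by 0.53 ± 0.04 on the log2 scale (adjusted p = 1.43e-05). Bmpr2, the type II receptor dedicated to BMPs, had 75.3, 82.8 and 93.2 CPM in PDT and 126, 118 and 127 CPM in PBS (-0.56 ± 0.07, adjusted p = 0.00025), and Bmpr1a, the type I receptor ALK3, was at -0.30 ± 0.04 (adjusted p = 0.000173). With length and GC offsets Bmpr2 was at -0.19 ± 0.04 (adjusted p = 0.00498) and Bmpr1a at -0.06 ± 0.05 (adjusted p = 0.371). Tgfbr3, the co-receptor betaglycan, rose by 0.55 ± 0.04 (adjusted p = 1.43e-05). None of 10 tested secreted antagonists rose and 4 fell, among them follistatin (Fst, -0.57 ± 0.04), Fstl1 (-0.21 ± 0.03) and Bmper (-0.52 ± 0.10), with adjusted p of 0.00275 or less.

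Of the 6 SMAD genes that transmit the signal 3 fell, and they were the 3 that serve BMP receptors. Smad9 fell by 0.75 ± 0.08 (adjusted p = 0.000106), Smad5 by 0.24 ± 0.04 (adjusted p = 0.00205) and Smad1 by 0.15 ± 0.05 (adjusted p = 0.0376). The Smad1 call ended without PDT replicate 1 or 3 or any one PBS library (adjusted p = 0.0603 to 0.142), with the replicate number as a block (0.0705), with library size only (0.129) and with no filter on low counts (0.0963), and that of Smad5 ended with length and GC offsets (-0.09 ± 0.03, adjusted p = 0.0703). Smad2 and Smad3, which serve TGF-β and activin receptors, and the shared Smad4 were at -0.06 ± 0.04, 0.09 ± 0.05 and 0.07 ± 0.04 (adjusted p = 0.281, 0.215 and 0.174). With length and GC offsets Smad2 turned to 0.13 ± 0.05 (adjusted p = 0.0553). Without PBS replicate 2 Smad3 was called higher (adjusted p = 0.0405), and so was Smad4 with library size only (0.0283).

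Other direct BMP targets moved the way of the Id genes in part. Of 9 tested, 5 fell and 4 did not pass the test. Smad6 and Smad7, inhibitory SMADs that feed back on the receptors, fell by 0.96 ± 0.07 and 1.12 ± 0.07 (adjusted p = 5.84e-06 and 2.62e-06). Atoh8, a bHLH factor gene induced by BMP signalling, had 14.3, 13.1 and 14.5 CPM in PDT and 23.9, 22.4 and 22.6 CPM in PBS, well apart (-0.72 ± 0.06, adjusted p = 2.81e-05). Hey1, at 0.11 ± 0.04 CPM in PDT and 0.52 ± 0.10 CPM in PBS, fell as well (adjusted p = 0.00213), and Smad9 completes the 5. The homeobox genes Msx1, Msx2 and Dlx5, targets in skeletal and limb mesenchyme, had log2 fold changes of 0.07 ± 0.11, 0.09 ± 0.26 and -0.05 ± 0.08 (adjusted p = 0.664, 0.82 and 0.704) with overlapping groups, and the decoy receptor gene Bambi was at -0.45 ± 0.22 (adjusted p = 0.151).

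Of 9 intracellular inhibitors of SMAD signalling 5 fell and 1 rose. Beside Smad6 and Smad7, Skil, a SMAD-binding repressor that TGF-β induces, fell to 7.71 ± 0.89 CPM in PDT, against 31.1 ± 1.29 CPM in PBS (-2.01 ± 0.09, adjusted p = 3.08e-07). The ubiquitin ligase gene Smurf1, whose product marks SMAD1 and SMAD5 for degradation, rose by 0.44 ± 0.04 (adjusted p = 2.07e-05).

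**Figure D5:**
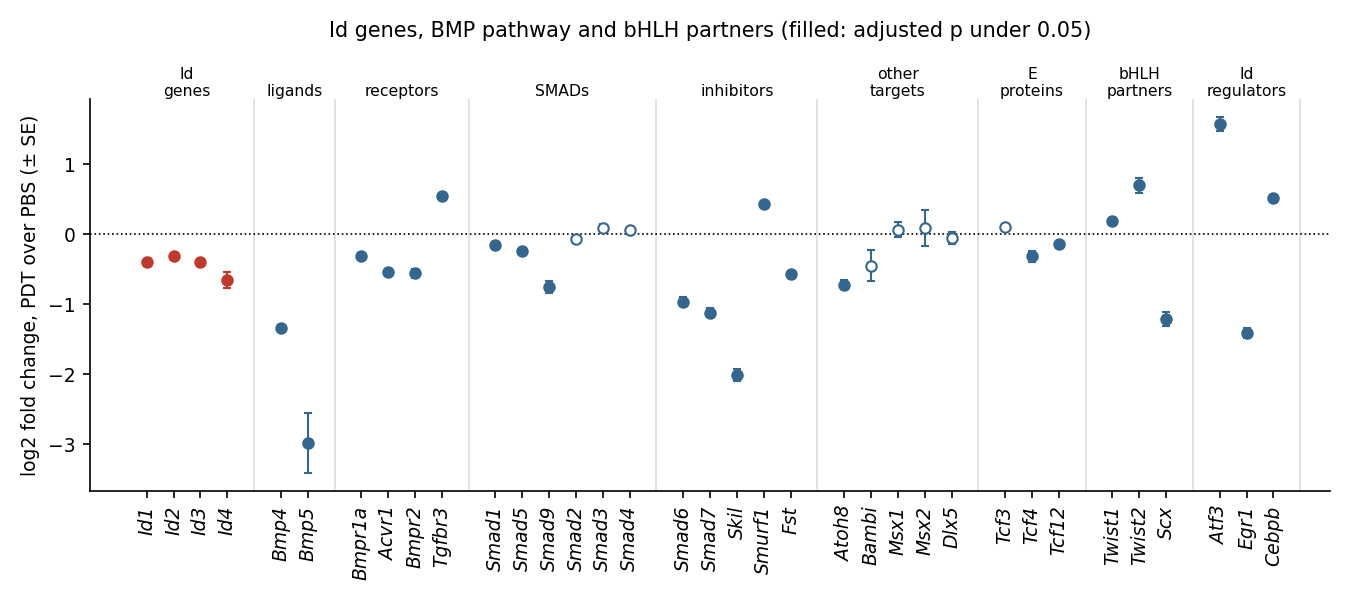
Log2 fold change, PDT over PBS (vertical axis, points with SE), of the Id genes in red and of selected BMP pathway genes, ID partners and Id regulators in blue, ordered by role along the horizontal axis. Genes outside a fixed set were picked for low adjusted p or added after their values were seen, so the plot does not show the share called. The secreted antagonist gene Fst is drawn among the inhibitors. Filled points have adjusted p under 0.05. The Id genes lie between -0.66 and -0.31, closer to 0 than Bmp4 (-1.35), Smad6 (-0.96), Smad7 (-1.12) and Atoh8 (-0.72), while Twist2 (0.70) and Atf3 (1.58) lie above 0.

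Of 12 tissue-restricted bHLH genes whose products pair with E proteins, 3 were tested, and 9 were listed at 0 in all libraries, the muscle regulators Myod1, Myf5 and Myog among them. Twist2, a repressor of mesenchymal differentiation, had 23.7, 21.5 and 17.3 CPM in PDT and 13.5, 12.6 and 12.2 CPM in PBS, with no overlap (0.70 ± 0.11, adjusted p = 0.000778). Its relative Twist1 was called higher by 0.19 ± 0.05 (adjusted p = 0.0145), a call that ended without PDT replicate 1 or 2 or PBS replicate 3 (adjusted p = 0.0575 to 0.0698) and with length and GC offsets (0.06 ± 0.04, adjusted p = 0.288). Scleraxis (Scx), the bHLH factor of tendon cells, fell to 3.17 ± 0.11 CPM in PDT, against 7.31 ± 0.44 CPM in PBS (-1.21 ± 0.10, adjusted p = 1.73e-05).

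The bHLH genes of the HES, HEY and BHLHE families all passed the test where tested, 4 of 6 lower and 2 higher. Hey2, lower (adjusted p = 0.0398), and Hes6, higher (adjusted p = 0.0457), passed narrowly. Hey2 also lay near 0, at 0.03 CPM in PDT and 0.21 CPM in PBS. Hes1, a Notch target, fell to 6.27 ± 0.51 CPM in PDT, against 24.5 ± 0.88 CPM in PBS (-1.97 ± 0.08, adjusted p = 1.38e-07). The stress and clock repressor Bhlhe40 fell by 0.30 ± 0.04 and its relative Bhlhe41 rose by 0.45 ± 0.08 (adjusted p = 0.000571 and 0.00155).

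Among 6 transcription factor genes known to act on Id genes, 3 rose and 2 fell, beside 18.7% higher and 17.5% lower among all tested genes. Atf3, whose product joins SMAD3 to repress ID1 in TGF-β-treated human epithelial cells, had 9.60, 9.19 and 9.13 CPM in PDT and 3.36, 2.80 and 3.19 CPM in PBS (1.58 ± 0.10, adjusted p = 3.04e-06). Egr1, an early-response factor tied to the serum response of Id1, moved the other way, with 31.5, 26.8 and 28.9 CPM in PDT and 70.8, 79.3 and 81.1 CPM in PBS (-1.41 ± 0.07, adjusted p = 7.79e-07). The groups lay far apart for both genes. Cebpb and Foxo3 rose by 0.52 ± 0.04 and 0.18 ± 0.04 (adjusted p = 1.13e-05 and 0.00417).

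Of 8 pocket protein and ETS genes whose products can bind ID proteins, 2 rose and 4 fell, beside 18.7% higher and 17.5% lower among all tested genes. Rb1, the retinoblastoma protein, fell to 38.7 ± 0.80 CPM in PDT, against 61.7 ± 0.91 CPM in PBS (-0.67 ± 0.04, adjusted p = 2.27e-06), and Ets2 rose by 0.83 ± 0.05 (adjusted p = 1.74e-06). The other pocket protein genes Rbl1 and Rbl2 were at -0.18 ± 0.05 and 0.16 ± 0.04 (adjusted p = 0.022 and 0.0181). The Rbl1 call ended without PDT replicate 1 or 2 or PBS replicate 1 or 3 (adjusted p = 0.0648 to 0.0782), with library size only (0.0897), with no filter on low counts (0.0783) and with length and GC offsets (-0.0070, adjusted p = 0.913), and the Rbl2 call ended without PBS replicate 3 (0.0688). Of 6 genes acting on ID protein stability 1 was called higher and 1 lower, near the 36.1% called in either direction among all tested genes. Cdc20, an activator of the anaphase-promoting complex, was higher by 0.21 ± 0.04 (adjusted p = 0.00314, and 0.11 with offsets). The deubiquitinase gene Usp33 fell by 0.35 ± 0.04 (adjusted p = 0.000233). Usp1, which removes ubiquitin from ID proteins in human cells, was at -0.10 ± 0.04 (adjusted p = 0.0836, and 0.0337 with a stricter filter).

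Of 5 genes known to be held down by ID proteins in other cells, 2 were tested and both were lower in PDT. Thbs1, the angiogenesis inhibitor thrombospondin 1 and a target that Id1 represses in mouse fibroblasts, had 844, 835 and 901 CPM in PDT and 4063, 3975 and 3863 CPM in PBS (-2.21 ± 0.04, adjusted p = 1.46e-09). Cdkn1a, the cell cycle inhibitor p21, stood at -0.12 ± 0.04 (adjusted p = 0.0231), and this was lost without PDT replicate 2, PBS replicate 1 or PBS replicate 2 (adjusted p = 0.0784 to 0.0813), with library size only (0.128) and with no filter on low counts (0.06). Cdkn2a and Cdkn1c were listed at 0 in all 6 libraries.

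Profiles over the 6 libraries were compared by the root mean square difference of log2 CPM after centring each gene on its own mean, among 10087 named genes whose log2 CPM averaged 2 or more. The closest to Id1 were the forkhead factor Foxc1 (difference 0.0283), the prolyl hydroxylase Egln1 (0.0313) and the MADS-box factor Mef2c (0.0325), and closest to Id3 were Maged2 (0.0145), the histone deacetylase Hdac5 (0.0165) and the collagen chaperone Fkbp10 (0.0224). Closest to Id2 were the replication licensing factor Cdc6 (0.0182), Fblim1 (0.0191) and the disulfide isomerase Pdia4 (0.0225), and closest to Id4 were Mlxip (0.0375), the insulin receptor substrate Irs1 (0.0386) and Thbs3 (0.0431). No Id gene was among the 3 closest to another, though Id4 was under the level cutoff and could not be. Id1 and Id2 differed by 0.048, and only 39 of 10084 other genes were closer to Id1 than Id2 was. Id2 and Id4 were the least alike pair at 0.187. These profiles are without the length and GC offsets, on which the likeness of the members depends. With the offsets the log2 fold change of Id1 differed from that of Id2 by -0.25, and that of Id2 from that of Id4 by 0.21.

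The cells carried markers of fibroblasts, with Col1a1, Col1a2, Col3a1, Pdgfra, Pdgfrb and Vim detected in every library and Thy1 under 1 CPM, and 6 of these 7 genes fell in PDT. Their summed level was 11966 to 12445 CPM in PDT and 20351 to 21210 CPM in PBS. Endothelial markers, of interest because endothelial cells are rich in Id1 and Id3, summed to 0.63 to 0.91 CPM over 5 genes in PDT and 0.76 to 1.52 CPM in PBS, with Kdr at 0 throughout. Leukocyte, epithelial and skeletal muscle markers, 5 genes each, summed to 5.44 CPM or less in any library, with Ptprc, Epcam, Myod1 and Myog at 0. Of these low markers, Cd68 was called higher in PDT (1.44 CPM, against 0.86 CPM in PBS, adjusted p = 0.00695). Acta1 (0.99 against 2.21 CPM, adjusted p = 0.000271) and the endothelial gene Tek (0.24 against 0.66 CPM, adjusted p = 0.0164) were called lower. Vwf, Cdh1 and Des were tested but not called. Adipocyte markers, also 5 genes, summed to 66.1 to 70.5 CPM in PDT and 47.4 to 50.004 CPM in PBS. Nearly all of that came from Pparg (means of 50.8 and 36.0 CPM) and Fabp4 (16.7 and 12.8 CPM). Cidec was at 0, and Adipoq and Plin1 did not pass the filter on low counts. Chondrocyte and osteoblast markers, 6 genes, summed to 78.2 to 81.2 CPM in PDT and 143 to 149 CPM in PBS. Here Col2a1 (24.6 and 71.4 CPM) and Sox9 (54.7 and 74.9 CPM) made up nearly all. Acan was at 0, and Sp7, Bglap and Ibsp did not pass that filter. The part of these mesenchymal marker shifts in the Id changes was not tested. A count of 0 allows up to 3 counts, or 0.0298 to 0.0368 CPM per library, for counting error only, and the table held on average 1093 genes per library with a count of 4 but 767.2 with a count of 2, so levels near 0 are uncertain.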

How the data were processed

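Total RNA of 6 samples was depleted of ribosomal RNA and made into directional libraries, per the labels' protocols. The deposited table holds raw whole-number counts per gene symbol, made by the authors; STAR 2.7.11b, cutadapt 4.6 and the build GRCm39 are named, per the submitters' processing notes. Which counter, annotation and strand setting they chose is not given in the sources used here, so counts of overlapping or antisense genes are uncertain. Groups came from the labelled treatment. Counts of every 2 libraries differed beyond sampling noise, with chi-square over its degrees of freedom at 11 or more.

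Counts were filtered with filterByExpr, scaled by TMM and tested by group with edgeR 4.0.16 (R 4.3.3); the SE is the log2 fold change over the square root of F. Alternatives used DESeq2 1.42.0, limma 3.58.1 (voom) and other scalings, filters and designs. Offsets came from mgcv 1.9.3 smooths on the length and GC of the longest coding GENCODE M21 transcript, known for 92.7% of tested genes; being of an earlier build, it gave gene properties only. On simulated counts of 17237 genes, 37% of 100 genes changed 1.2-fold and 96% of 100 changed 1.5-fold were recovered. The members, lists and tests were chosen with earlier results of these data known. Named genes were the members, a fixed set, up to 4 called genes per list with the lowest adjusted p, and the 3 closest profiles per member; Bambi, Msx1, Msx2, Dlx5, Smad2, Smad3 and Smad4 were added after their values were seen. One gene that this rule names is not reported here.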

Additional observations from a re-analysis of the deposited data

How the results depend on the processing

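All 4 Id genes were lower with adjusted p under 0.05 in each of the 14 alternative settings, with adjusted p up to 0.0011 for Id1, 0.0063 for Id2, 0.000665 for Id3 and 0.00845 for Id4. The count of called genes stayed within 1.5 times of 6372, at 4755 to 6877, and calls higher in PDT made up 63% with library size only, against 51.7% with TMM. The log2 difference in the ratio of Id to E protein levels was -0.27 when levels were not divided by length, against -0.35. In an alternative added after seeing the data, the length and GC offsets gave differences between members of -0.25 for Id1 to Id2, -0.043 for Id1 to Id4, 0.24 for Id2 to Id3, 0.21 for Id2 to Id4 and -0.025 for Id3 to Id4, against -0.09, 0.26, 0.08, 0.34 and 0.27 from counts. With length and GC offsets the sign turned for Tcf4 (0.0047), Tcf12 (0.024), Msx1 (-0.052) and Smad2 (0.13), and with library size only for Dlx5 (0.0020); leaving out 1 library moved Msx2 between -0.052 (without PBS replicate 1) and 0.26 (without PDT replicate 2), with -0.034 without PDT replicate 3. The causes were not tested. Of 835 values of other named genes under alternatives, 788 kept direction and side of the threshold, 36 lost the call, 4 gained one and 7 turned sign. Same-numbered libraries did not deviate together (correlations of -0.0122, 0.014 and 0.0047), so the numbers were not taken as pairs. With the replicate number as a block 6067 genes were called, and the log2 fold changes were -0.40 for Id1, -0.31 for Id2, -0.39 for Id3 and -0.66 for Id4; paired differences of the ratios equal the unpaired ones. Depth limits Id4 most, with at most 354 counts per library. Exact tests of 3 against 3 cannot go below 0.10.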
